A study of Arabidopsis thaliana with 8 samples.

Results

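Rubisco, the enzyme that fixes CO2 in the Calvin-Benson cycle, is built from large subunits encoded in the plastid genome (rbcL) and small subunits encoded in the nucleus by a small gene family (RBCS). The small subunits are made in the cytosol and imported into chloroplasts. Rubisco activase (RCA) is an ATP-driven chloroplast protein that removes inhibitory sugar phosphates from the active sites of Rubisco. RBCS and RCA are among the classic light-induced genes of green tissue, and light-regulated genes of this kind are commonly described by G-box and I-box elements near their 5′ ends. HY5, a bZIP factor, can bind G-boxes.

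The 5 genes described here are the Arabidopsis thaliana small subunit genes RBCS1A (AT1G67090), RBCS1B (AT5G38430), RBCS2B (AT5G38420) and RBCS3B (AT5G38410), together with RCA (AT2G39730). They were taken by locus identifier from the 27628 loci measured by RNA sequencing, and all 5 passed the filter on low counts that 20695 loci passed. The rule picks them by identity and uses no measured value, but they and the gene lists used below were chosen with earlier results of these data known.

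Whole seedlings of ecotype Col-0 were wild type (WT), agb1 (allele agb1-2, affecting the G protein beta subunit AGB1), hy5 (allele not given), or cry1 cry2, a double mutant in the cryptochrome blue-light receptors (alleles not given). Each genotype had 2 biological replicates with 1 library each, which makes 8 libraries. All seedlings had 3 days in the cold (4 °C), 12 h of white light and 4.5 days of blue light, on MS medium with 1% sucrose. The number of seedlings per library is not stated. The study's question was which genes depend on cryptochrome and HY5 signalling in blue light and which on the G protein.

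Library totals ran from 15651218 to 23098347 reads, and levels are given in CPM, the read count relative to the library total after scaling by TMM factors. Of the targeted genes, CRY2 was down to 3 and 4 reads in cry1 cry2, where the WT libraries had 5006 and 4256, and CRY1 stood at 40.1% of its WT level there. AGB1 stood at 62.9% of WT in agb1. HY5 stood at 93.9% of WT in hy5, so its reads neither check nor contradict that label. Markers of the organs in a whole seedling differed between genotypes. Unlike the other levels, the marker sums that follow are CPM of the library total without TMM factors. The 16 root genes summed to 5262 to 5323 CPM in WT, 3427 to 3483 in agb1, 8187 to 8454 in hy5 and 9880 to 10064 in cry1 cry2. PYK10 made up most of this root sum, with a TMM-scaled mean of 4156 CPM in WT and 6584 in hy5. Of the 15 root genes tested singly against WT, 8 rose and 5 fell in hy5, where 22.6% of all loci were called higher and 20.2% lower. The 6 seed storage and oil body genes summed to 8.96 to 11.4 CPM in WT, 2.24 to 2.81 in agb1, 6.57 to 7.52 in hy5 and 66.1 to 89.8 in cry1 cry2. The 6 light-harvesting and photosystem genes that mark green tissue summed to 16686 to 17295 CPM in WT, 19127 to 19818 in agb1, 5995 to 6009 in hy5 and 2395 to 2489 in cry1 cry2. None of these 28 markers was without reads in all libraries. In RNA from whole seedlings, fewer green cells and less RNA per green cell cannot be told apart, and the part of organ makeup in the results below was not tested.

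RBCS1B, RBCS2B and RBCS3B lie in tandem on chromosome 5 within 8333 bases, separated by 2264 and 1095 bases, all on the minus strand of TAIR10.1. Their spans are bases 15383167 to 15385320 for RBCS1B, 15380907 to 15382071 for RBCS2B and 15376988 to 15378642 for RBCS3B. RBCS1A stands alone on chromosome 1, bases 25048158 to 25049667, and RCA on chromosome 2, bases 16570746 to 16573692, both also on the minus strand. The coding sequences of the tandem copies were 96.7% to 97.3% identical to each other, and RBCS1A was 89.9% to 90.1% identical to them. How far reads can be told apart between copies follows from these sequences, so 60 coding bases are shown where the tandem copies differ most (coding positions 91 to 150, RefSeq, TAIR10.1). Capitals mark bases that differ from RBCS1B.
RBCS1A: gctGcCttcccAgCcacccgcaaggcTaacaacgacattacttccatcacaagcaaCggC
RBCS1B: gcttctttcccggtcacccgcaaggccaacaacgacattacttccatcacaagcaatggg
RBCS2B: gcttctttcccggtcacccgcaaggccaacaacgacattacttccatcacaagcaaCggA
RBCS3B: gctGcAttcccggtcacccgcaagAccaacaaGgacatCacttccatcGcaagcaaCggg

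In this stretch 7 bases of RBCS1A, 2 of RBCS2B and 7 of RBCS3B differed from RBCS1B. The opposite case is a run of 89 coding bases (positions 361 to 449) in which the tandem copies are identical, and its 60 leading bases are shown with the same use of capitals.
RBCS1A: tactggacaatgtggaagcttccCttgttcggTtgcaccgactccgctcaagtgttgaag
RBCS1B: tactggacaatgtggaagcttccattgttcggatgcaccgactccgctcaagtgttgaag
RBCS2B: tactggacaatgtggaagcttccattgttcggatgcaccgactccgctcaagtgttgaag
RBCS3B: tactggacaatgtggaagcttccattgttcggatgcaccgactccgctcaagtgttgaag

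A read that lies wholly within the run of 89 bases cannot be assigned to a tandem copy, while one that reaches past it may be. RBCS1A differs from the tandem copies at 2 of the 60 bases shown, so a read covering either base tells it from them. Only 25 of the 546 coding positions differ among the tandem copies. Of all 50-base windows of the coding sequence, 3.6% of those of RBCS1A recur in another copy, against 51.9% for RBCS1B, 38.0% for RBCS2B and 42.5% for RBCS3B. At 100 bases the shared windows were 0 for RBCS1A and RBCS2B and 30% for RBCS1B and RBCS3B. Neither read length nor the treatment of multiply matching reads is stated in the sources used here, so the division of reads among RBCS1B, RBCS2B and RBCS3B is uncertain, and RBCS1A and the sum of the tandem copies are the firmer values.

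The 500 bases before each start codon were read for the G-box CACGTG and the I-box GATAAG on both strands, as elements by which light-regulated genes are usually described. A G-box was found in RBCS1A, RBCS2B, RBCS3B and RCA and not in RBCS1B. It was found in 9.29% of the same windows of 27417 loci. The sites are shown with the G-box in capitals, in the sense of the gene.
RBCS1A, chr1:25049491-25049520: ggaattatcttcCACGTGgcattattccag
RBCS2B, chr5:15382177-15382206: ggagttttctgcCACGTGatcttatcctag
RBCS3B, chr5:15378506-15378535: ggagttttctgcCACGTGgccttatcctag
RCA, chr2:16573579-16573608: ataaacatattcCACGTGgaccaatcaaaa

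These boxes begin 259, 216, 217 and 251 bases before the start codon. By the annotation those of RBCS1A, RBCS3B and RCA lie within the span of the gene, and only that of RBCS2B lies upstream of it. Whether a given transcript model or exon covers these sites was not examined. All 5 genes held at least 1 I-box, as did 23.49% of the 27417 windows. There were 2 I-box matches in RBCS1A, 2 that share a base in RBCS1B, 3 each in RBCS2B and RBCS3B, and 1 in RCA. For each RBCS copy the match nearest the start codon is shown.
RBCS1A, chr1:25049462-25049491: gcggttcaagccGATAAGggtctcaacacc
RBCS1B, chr5:15385303-15385332: aaagaaagataaGATAAGggtgtcaacacc
RBCS2B, chr5:15382148-15382177: gtggtccaaatcGATAAGggtgtcaacacc
RBCS3B, chr5:15378477-15378506: gtggtgcgtaccGATAAGggtgtcaacacc

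These I-boxes begin 230, 165, 187 and 188 bases before the start codon. A match of these letters is a description of the sequence and not a binding site.

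Per coding length, RBCS1A was the most abundant small subunit transcript in every library and RBCS3B the next. The level of RBCS1A was 3534 and 3489 CPM in the WT libraries, 5163 and 5248 in agb1, 3871 and 4004 in hy5, and 994 and 1024 in cry1 cry2. The 4 pairs of libraries did not overlap, in the order agb1, hy5, WT, cry1 cry2.

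RBCS3B had 1774 and 1716 CPM in WT, 2247 and 2172 in agb1, 2707 and 2672 in hy5, and 468 and 468 in cry1 cry2. RBCS1B had 776 and 716 CPM in WT, 980 and 1023 in agb1, 1161 and 1186 in hy5, and 209 and 196 in cry1 cry2. RBCS2B had 634 and 630 CPM in WT, 762 and 749 in agb1, 983 and 990 in hy5, and 304 and 285 in cry1 cry2. In these 3 tandem copies the libraries again fell into 4 separate pairs, but with hy5 above agb1.

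RCA had 2945 and 2827 CPM in WT, 3147 and 3109 in agb1, 3986 and 3747 in hy5, and 366 and 358 in cry1 cry2. It followed the order of the tandem copies, with hy5 highest and the cry1 cry2 libraries far below all others. The plastid gene rbcL (ATCG00490, matched as the single plastid model with the annotated coding length of rbcL) had 735 and 643 CPM in WT, 579 and 968 in agb1, 796 and 927 in hy5, and 562 and 449 in cry1 cry2. Its replicates lay further apart, and the agb1 pair spanned both WT libraries. Selection of RNA by poly(A) tails is neither stated nor denied in those sources, so the level of rbcL is compared between genotypes and not with nuclear genes.

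**Figure D1:**
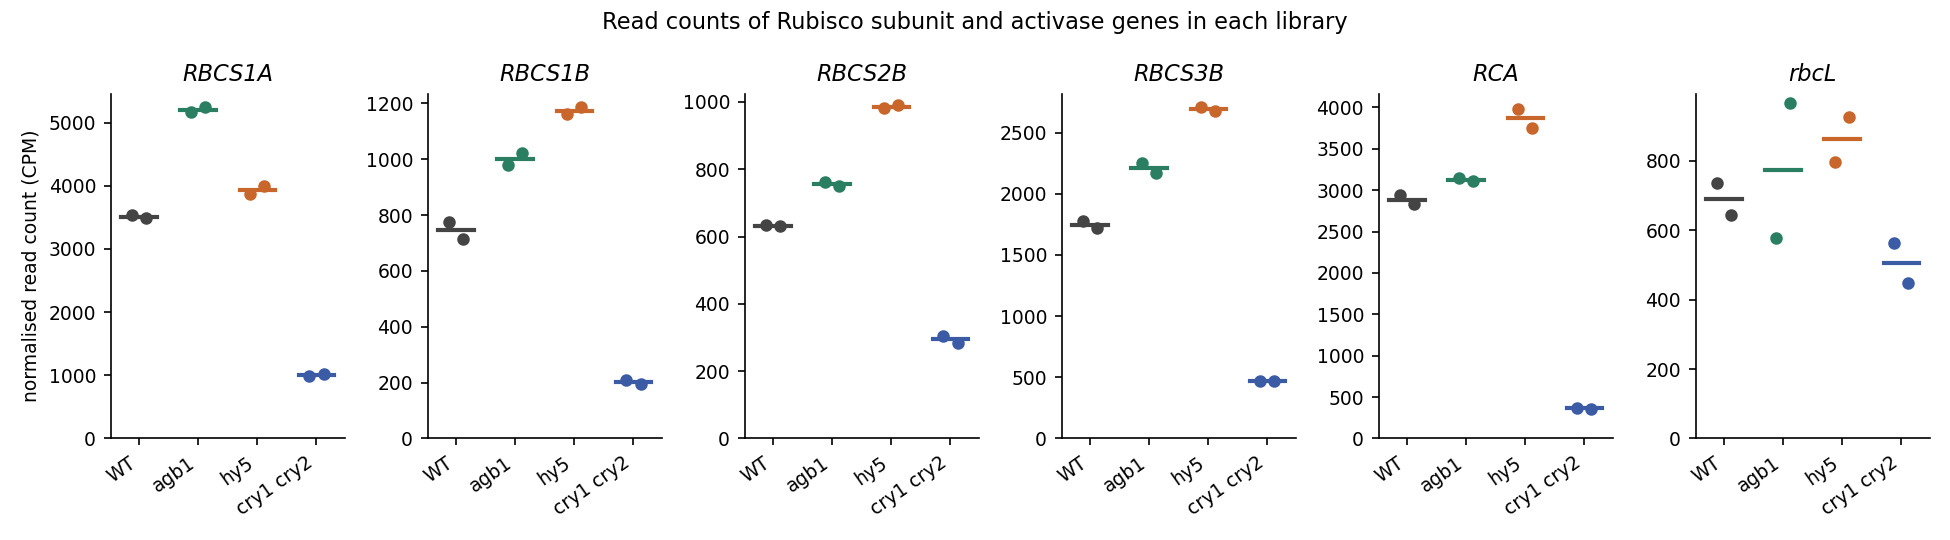
Normalised read counts (CPM, y axis, from 0) of the 4 RBCS genes, RCA and rbcL in WT, agb1, hy5 and cry1 cry2 (x axis); points are the 2 libraries of a genotype and lines their mean. The cry1 cry2 libraries are lowest in every panel, agb1 is highest for RBCS1A (5163 and 5248) and hy5 for the other small subunit genes and RCA, while the 2 agb1 libraries of rbcL lie at 579 and 968.

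Per kilobase of coding sequence, RBCS1A stood at 6503 ± 58.2 CPM per kilobase in WT (mean ± SD, n = 2), RBCS3B at 3127 ± 73.5, RCA at 2030 ± 58.4, RBCS1B at 1374 ± 77.4 and RBCS2B at 1164 ± 4.99. No neighbours in this order overlapped between their libraries. The order was the same in agb1 and hy5. In cry1 cry2 RBCS1A stood at 1869 ± 39.2 CPM per kilobase, RBCS3B at 839 ± 0.98, RBCS2B at 542 ± 25.0, RBCS1B at 373 ± 16.3 and RCA at 255 ± 3.90, so RCA, which stood above RBCS1B and RBCS2B in WT, came last. Among the 14662 loci ranked by this per-length level, RBCS1A held rank 7 or 8 in WT, rank 4 in agb1 and hy5, and ranks 33 and 34 in cry1 cry2. RCA held ranks 47 and 49 in WT, 23 and 26 in hy5, and 555 and 557 in cry1 cry2.

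The comparison of agb1 with WT addressed dependence on the G protein beta subunit. All 4 small subunit genes rose in agb1 and RCA did not pass the test. By edgeR's quasi-likelihood test with Benjamini-Hochberg adjustment over 20695 loci, 17.2% of loci were called in this comparison, 8.76% as higher and 8.41% as lower. RBCS1A reached 148% of its WT level (log2 fold change 0.57 ± 0.05 SE, adjusted p = 1.43e-10), and 3.97% of loci had a larger log2 fold change. RBCS1B reached 134% (0.42 ± 0.05, adjusted p = 5.11e-07), RBCS3B 127% (0.34 ± 0.05, adjusted p = 3.44e-06) and RBCS2B 120% (0.26 ± 0.05, adjusted p = 3.89e-04). RCA stood at 108% of WT, and both of its agb1 libraries lay above both WT libraries, but its log2 fold change of 0.12 ± 0.05 had an adjusted p of 0.103. For rbcL the log2 fold change was 0.16 ± 0.12 (adjusted p = 0.436) with overlapping libraries. In agb1, 5 of the 6 green-tissue markers rose and 0 fell, and 11 of the 15 root markers tested fell and 1 rose.

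The comparison of hy5 with WT addressed dependence on HY5. All 4 small subunit genes and RCA rose, in a comparison that called 42.9% of loci, 22.6% as higher and 20.2% as lower. The 3 tandem copies moved by nearly the same factor, RBCS1B to 157% of WT (log2 fold change 0.65 ± 0.05, edgeR adjusted p = 2.68e-11), RBCS2B to 156% (0.64 ± 0.05, adjusted p = 1.40e-11) and RBCS3B to 154% (0.62 ± 0.05, adjusted p = 7.73e-12). The division of reads among these copies is uncertain, and its part in the likeness of their factors was not tested. RBCS1A rose less, to 112% (0.17 ± 0.05, adjusted p = 0.00460), and 31.6% of all loci had a larger log2 fold change. RCA reached 134% (0.42 ± 0.05, adjusted p = 2.78e-08). The large subunit gene rbcL was called higher, at 125% of WT (0.32 ± 0.12, adjusted p = 0.0358). That SE is moderated across loci, and the rbcL replicates lay further apart than it conveys (735 and 643 CPM in WT, 796 and 927 in hy5). The rise of rbcL is therefore less certain than those of the other genes. The green-tissue markers went the other way: 6 of 6 fell, with log2 fold changes between -2.31 and -0.60. Of the 15 root markers tested, 8 rose and 5 fell.

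The comparison of cry1 cry2 with WT addressed dependence on the cryptochromes. All 5 genes fell, RCA by the largest factor and RBCS2B by the smallest, in a comparison that called 51.4% of loci, 25.6% as higher and 25.8% as lower. RCA fell to 12.5% of its WT level (log2 fold change -3.0 ± 0.05, edgeR adjusted p = 1.24e-27), and 0.831% of all loci had a lower log2 fold change. RBCS3B fell to 26.8% (-1.90 ± 0.05, adjusted p = 1.70e-23), RBCS1B to 27.1% (-1.88 ± 0.06, adjusted p = 3.17e-22) and RBCS1A to 28.7% (-1.80 ± 0.05, adjusted p = 2.48e-23). RBCS2B kept 46.6% of its WT level (-1.10 ± 0.05, adjusted p = 2.58e-17). For rbcL 73.3% remained (-0.45 ± 0.12, adjusted p = 0.00336). Here too the moderated SE is narrower than the spread of the rbcL replicates (735 and 643 CPM in WT, 562 and 449 in cry1 cry2). The 6 green-tissue markers all fell, between -4.06 and -1.35 on the log2 scale, 11 of 15 root markers rose and 0 fell, and 6 of 6 seed markers rose. Scaling by library sizes alone moved the median of all loci by 0.182 in this comparison, and RCA then stood at -2.81.

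**Figure D2:**
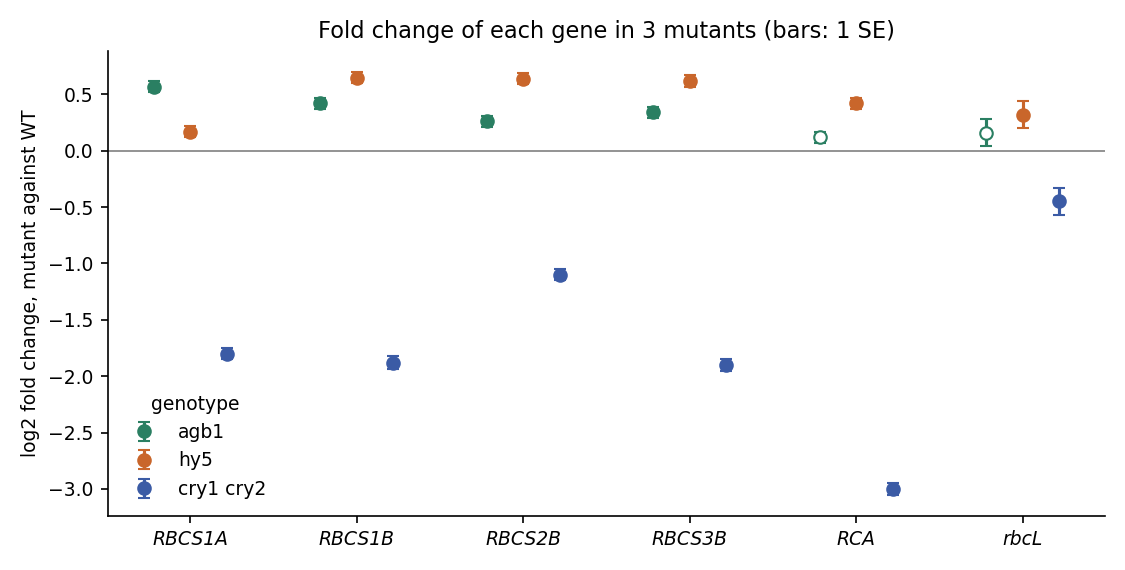
Log2 fold change of each gene (x axis) in agb1, hy5 and cry1 cry2 against WT (y axis, 0 is the WT level), with bars of 1 SE; open points did not pass an adjusted p of 0.05. RCA and rbcL in agb1 are the open points, RBCS1A is the small subunit gene with the highest value in agb1 (0.57) and the lowest in hy5 (0.17), and RCA lies lowest in cry1 cry2 (-3.0).

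The mutants were also set against each other in the same fit. Between agb1 and hy5, where 49.9% of loci were called (24.2% higher and 25.7% lower in agb1), RBCS1A was higher in agb1 and the other 4 genes were higher in hy5. The log2 difference, agb1 minus hy5, was 0.40 ± 0.05 for RBCS1A (edgeR adjusted p = 1.90e-08), -0.23 ± 0.05 for RBCS1B (adjusted p = 6.24e-04), -0.38 ± 0.05 for RBCS2B (adjusted p = 2.18e-07), -0.28 ± 0.05 for RBCS3B (adjusted p = 1.17e-05) and -0.31 ± 0.05 for RCA (adjusted p = 4.60e-06). All 5 pairs of libraries were apart. Against cry1 cry2 all 5 genes were higher in both other mutants. In agb1 the log2 difference from cry1 cry2 ran from 1.36 ± 0.05 for RBCS2B to 3.11 ± 0.05 for RCA, in a comparison that called 57.9% of loci (28.8% higher and 29.1% lower in agb1). In hy5 it ran from 1.74 ± 0.05 for RBCS2B to 3.42 ± 0.05 for RCA, which was 10.7-fold, in a comparison that called 43.7% of loci (23.2% higher and 20.6% lower in hy5). These comparisons share libraries with those against WT.

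Taken as a family, the small subunit transcripts summed to 6717 and 6552 CPM in WT, 9152 and 9192 in agb1, 8722 and 8852 in hy5, and 1975 and 1973 in cry1 cry2. On this scale agb1 stood at 138% of WT, hy5 at 132% and cry1 cry2 at 29.8%. As a share of all reads of a library, the 4 genes held 0.648% and 0.651% in WT, 0.855% and 0.860% in agb1, 0.856% and 0.870% in hy5, and 0.218% and 0.22% in cry1 cry2. As shares of all reads the agb1 and hy5 libraries overlapped, so which of them was higher depends on the scaling. The sum of the tandem copies alone, which does not depend on how reads were divided among them, was 127% of WT for agb1, 155% for hy5 and 30.9% for cry1 cry2.

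The makeup of the family differed between genotypes. Shares of the summed RBCS reads do not depend on library scaling, and each was tested by an exact permutation test of the F ratio over all ways of putting 8 libraries into 4 pairs. The smallest p this allows is 0.00952, and 2 libraries against 2 cannot go below 0.333, so single pairs of genotypes were not tested and are described. The 4 shares add up to the whole and are not independent of each other. RBCS1A made up 52.6% and 53.3% of RBCS reads in WT, 56.4% and 57.1% in agb1, 44.4% and 45.2% in hy5, and 50.3% and 51.9% in cry1 cry2. No genotypes overlapped, and the share differed over the 4 genotypes (exact p = 0.00952, adjusted over 8 quantities 0.0381). The difference from WT was -8.13 percentage points in hy5 and 3.82 points in agb1.

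RBCS2B made up 9.44% and 9.62% of RBCS reads in WT, 8.33% and 8.15% in agb1, 11.3% and 11.2% in hy5, and 15.4% and 14.4% in cry1 cry2. Its share was highest in cry1 cry2 and lowest in agb1 without overlap (exact p = 0.00952, adjusted 0.0381). RBCS3B held 26.4% and 26.2% in WT, 24.6% and 23.6% in agb1, 31.0% and 30.2% in hy5, and 23.7% and 23.7% in cry1 cry2 (exact p = 0.0286, adjusted 0.0457). RBCS1B held 11.5% and 10.9% in WT, 10.7% and 11.1% in agb1, 13.3% and 13.4% in hy5, and 10.6% and 9.94% in cry1 cry2 (exact p = 0.0286, adjusted 0.0457). For both the hy5 libraries stood above all others, while agb1 overlapped with cry1 cry2 for RBCS3B and with WT for RBCS1B. In cry1 cry2 the share of RBCS2B was above that of RBCS1B, and in the other genotypes below it. With only the model with most reads per locus, RBCS2B stood above RBCS1B in WT too (14.8% against 8.79%) and RBCS3B at 16.3% there. That change follows from the number of models and says nothing about the order of the copies. RBCS1B has 2 models with the same coding sequence and RBCS3B has 3 that overlap, so keeping 1 drops part of their reads. RBCS2B has 1 model and loses none. Each share still differed over the genotypes with this setting (exact p = 0.00952).

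**Figure D3:**
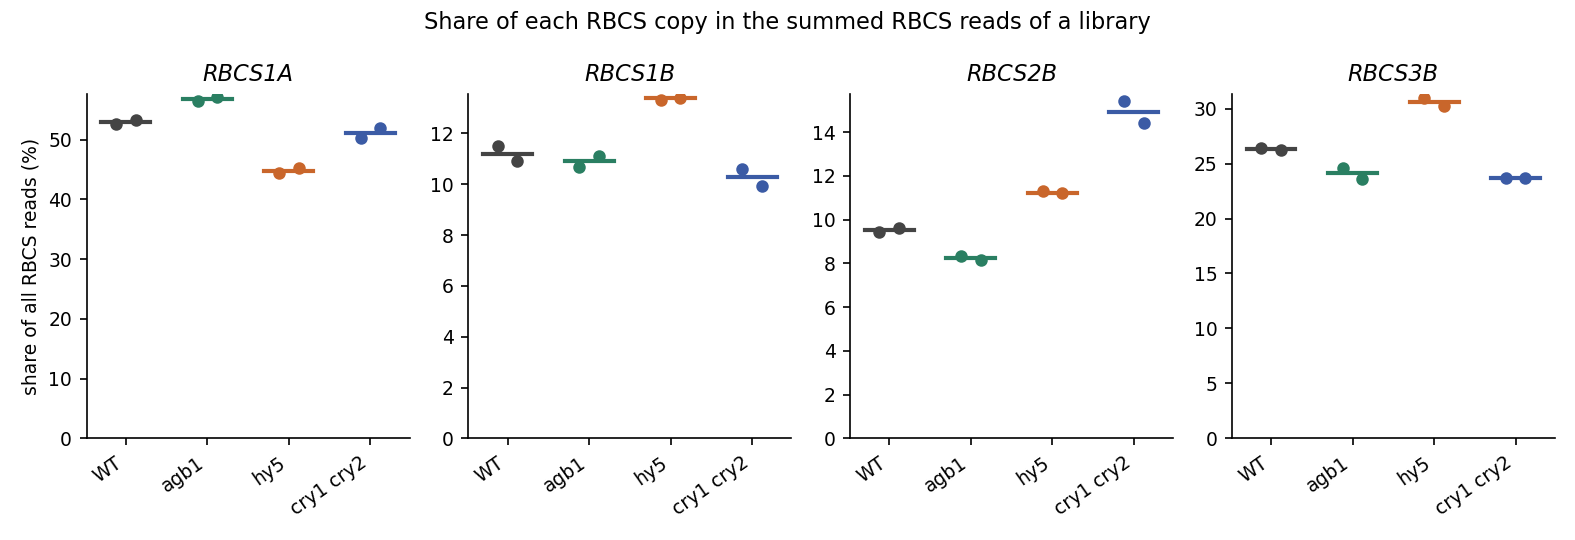
Share of each RBCS copy in the summed RBCS reads of a library (%, y axis from 0) by genotype (x axis); points are libraries and lines means of 2. RBCS1A is lowest in hy5 (44.4% and 45.2%), and RBCS2B is highest in cry1 cry2 (15.4% and 14.4%).

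RCA did not keep a fixed ratio to the small subunits. There were 43.8 and 43.2 RCA reads per 100 RBCS reads in the WT libraries, 34.4 and 33.8 in agb1, 45.7 and 42.3 in hy5, and 18.5 and 18.1 in cry1 cry2. The hy5 pair spanned the WT pair, agb1 lay below both, and cry1 cry2 lay lowest. Per coding length the means were 16.7 ± 0.186, 13.1 ± 0.157, 16.9 ± 0.920 and 7.03 ± 0.102 in the same order. The log2 ratio differed over the 4 genotypes (exact p = 0.0286, adjusted 0.0457), with means of -1.2 for WT, -1.55 for agb1, -1.19 for hy5 and -2.45 for cry1 cry2.

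**Figure D4:**
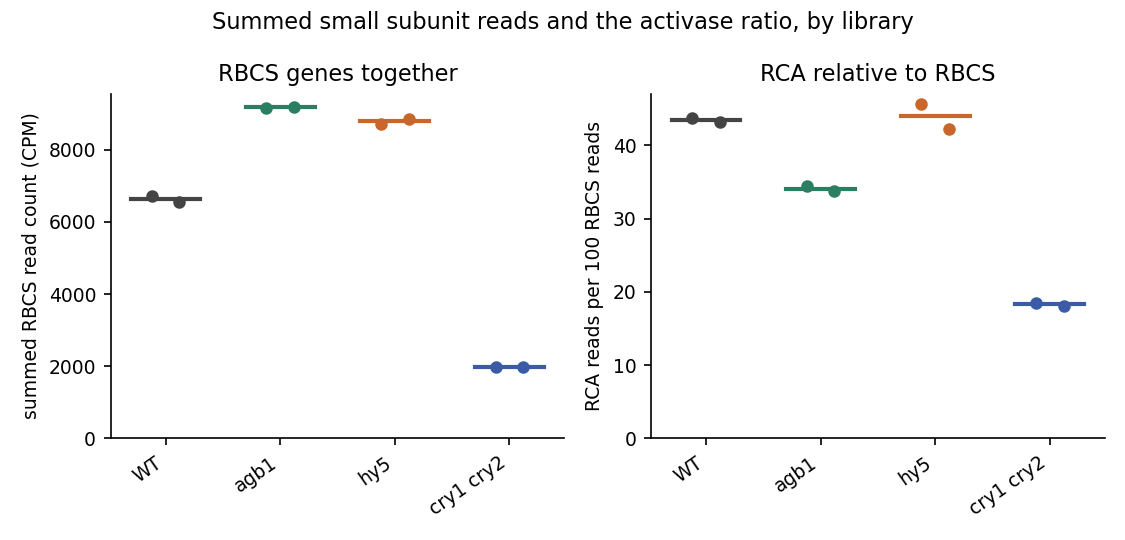
Left, summed CPM of the 4 RBCS genes per library (y axis from 0); right, RCA reads per 100 RBCS reads (y axis from 0), both by genotype, with points for libraries and lines for means of 2. The sum is higher in agb1 and hy5 than in WT, while the ratio is lower in agb1 (34.4 and 33.8) and cry1 cry2 (18.5 and 18.1) and near WT in hy5.

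RCA is annotated with 3 transcript models, and alternative splicing of its pre-mRNA is known to give a longer activase, whose activity responds to thioredoxin f, and a shorter one. The splice site that separates the models is shown because their reads were counted apart (chr2:16571174-16571203, minus strand, RefSeq, TAIR10.1); the capitals mark 11 bases that are coding in models 2 and 3 and not in model 1.
RCA: ggaactttctacgGTAAAACAGAGgtttga

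Model 1 held 39.6% and 39.7% of the RCA reads in WT, 39.5% and 40.1% in agb1, 39.3% and 39.7% in hy5, and 39.4% and 39.2% in cry1 cry2. Models 2 and 3 held 31.1% to 32.2% and 28.4% to 29.6% over the 8 libraries. No difference of the shares over genotypes was detectable (exact p = 0.352, 0.610 and 0.733; adjusted 0.470, 0.697 and 0.733). Of the 50-base windows of these models, 91.6% to 99.6% recur in another model, so the shares say little about which activase form was made.

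Other genes of the pathway were read from a list of 18 genes for Rubisco assembly, modification and activation and a list of 19 other Calvin-Benson enzymes and CP12 proteins. In agb1, 11 of the 18 assembly genes rose and 0 fell (median log2 fold change 0.28), and 17 of the 19 cycle genes rose and 0 fell (median 0.27). Over all loci tested the median was -0.003, with 8.76% called higher and 8.41% lower. RBCX1, a chaperone of the RbcX type known from cyanobacteria to help the large subunit assemble, rose from 59.1 ± 2.2 to 88.0 ± 5.65 CPM (log2 fold change 0.58 ± 0.06). CP12-2, a linker protein that ties the cycle enzymes GAPDH and phosphoribulokinase into a complex, rose from 45.3 ± 2.75 to 76.6 ± 8.98 CPM (0.76 ± 0.07). The plastid phosphoglycerate kinase gene PGK1 rose from 523 ± 14.6 to 748 ± 0.0376 CPM (0.52 ± 0.05). With library sizes alone 13 of the 19 cycle genes rose and 0 fell, and with DESeq2 9 of the 18 assembly genes rose and 0 fell. Without WT replicate 2 the median log2 fold change was 0.27 for the assembly genes and 0.26 for the cycle genes.

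Of the assembly genes 7 rose and 6 fell in hy5 (median log2 fold change 0.01, and -0.02 without WT replicate 2). With DESeq2 5 of them rose and 4 fell. Of the cycle genes 11 rose and 0 fell (median 0.17). The median over all loci was -0.001, with 22.6% called higher and 20.2% lower. RBCX1 fell from 59.1 ± 2.2 to 17.2 ± 0.776 CPM (-1.79 ± 0.08), whereas RAF2 (AT5G51110) rose from 93.2 ± 0.785 to 120 ± 1.57 CPM (0.36 ± 0.06) and CBBY (AT3G48420), a phosphatase acting on an inhibitory sugar phosphate, from 31.5 ± 3.86 to 43.9 ± 4.81 CPM (0.47 ± 0.08). CP12-2 rose to 93.2 ± 4.95 CPM (1.04 ± 0.07), and FBA1, a plastid fructose-bisphosphate aldolase, from 304 ± 5.55 to 476 ± 7.11 CPM (0.65 ± 0.05).

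In cry1 cry2, 17 of the 18 assembly genes fell and 0 rose (median log2 fold change -1.22), and 16 of the 19 cycle genes fell and 2 rose (median -1.57). Over all loci the median was 0.001, with 25.6% called higher and 25.8% lower. RBCX1 fell from 59.1 ± 2.2 to 0.674 ± 0.170 CPM (-6.44). That level is low, as 3 reads are 0.192 CPM at the smallest library total, so the size of the fall is imprecise. No SE is given for it, as one taken from F is unreliable for so large a change at so low a level. TRXF1, an f-type thioredoxin, the class that regulates cycle enzymes and the longer activase by redox state, fell from 97.7 ± 2.77 to 8.62 ± 1.2 CPM (-3.50 ± 0.08). FBA1 fell to 39.4 ± 0.295 CPM (-2.95 ± 0.06), close to the value of RCA, and GAPB, the B subunit of plastid GAPDH, fell from 725 ± 33.2 to 152 ± 0.821 CPM (-2.26 ± 0.06). The transketolase gene TKL2 rose from 36.3 ± 0.00898 to 56.7 ± 0.580 CPM (0.64 ± 0.07) and the aldolase gene FBA3 from 178 ± 10.1 to 220 ± 9.02 CPM (0.30 ± 0.06). With library sizes alone 14 assembly genes fell and 1 rose. The SDs are of 2 libraries, and each list gene named with a change had an edgeR adjusted p of at most 3.55e-05.

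**Figure D5:**
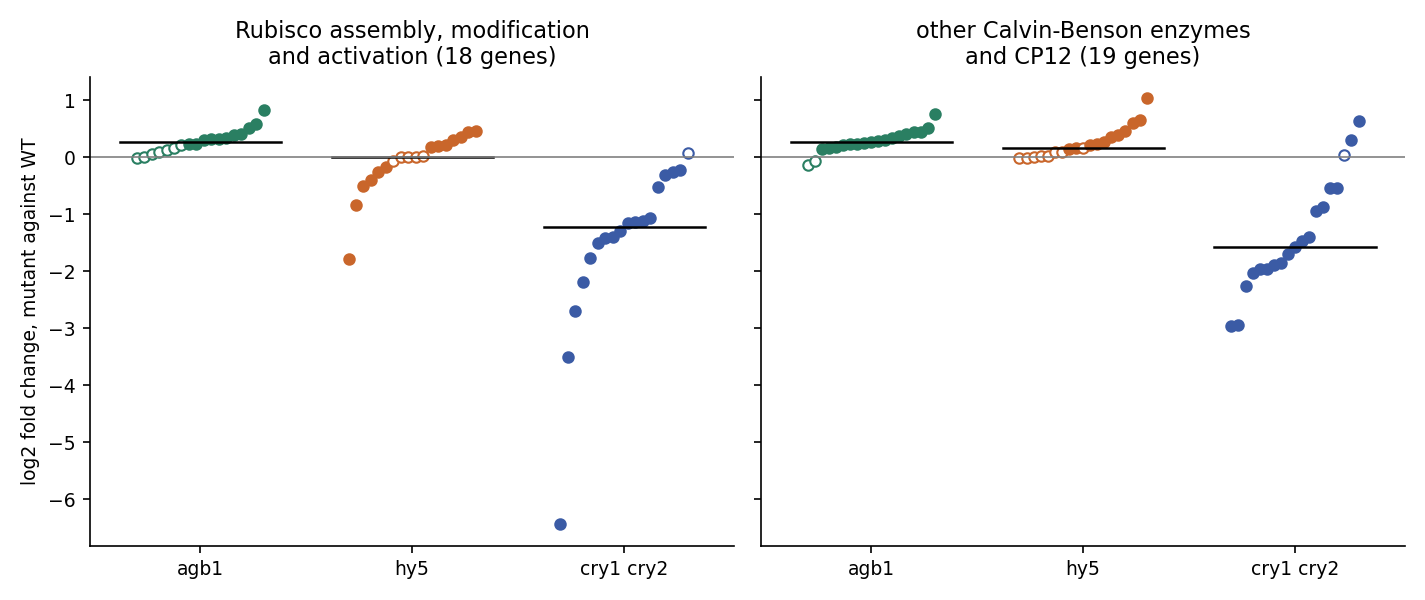
Log2 fold change against WT (y axis) of 18 genes for Rubisco assembly, modification and activation (left) and 19 other Calvin-Benson genes (right) in 3 mutants (x axis), sorted within each; filled points passed an adjusted p of 0.05 and lines are medians. In cry1 cry2 nearly all lie below 0, with RBCX1 at -6.44, and in hy5 the left list spreads to both sides of 0.

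The loci whose levels ran closest to each member were sought among 4200 loci with a mean of at least 50 CPM. The measure was the root mean square difference in log2 CPM, centred on WT, over the 8 libraries, and it is given as a description. The pattern of RBCS1A was matched most closely by NdhL (AT1G70760; 0.0580), the cytochrome b6f subunit gene AT2G26500 (0.0851) and PGK1 (0.1), and not by another small subunit gene, the nearest of which held place 50 at 0.262. RBCS1B and RBCS3B were each other's closest match (0.0617), and they are also the copies that share 100-base windows. SBPASE, the sedoheptulose-bisphosphatase of the cycle, was next to RBCS3B (0.0709). RBCS2B lay closest to the thioredoxin gene THX (AT1G50320; 0.105), with other RBCS copies no nearer than place 204. RCA lay closest to FBA1 (0.122) and then to the carbonic anhydrase gene CA1 (0.222), and its nearest small subunit gene, RBCS3B, held place 53 at 0.569.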

How the data were processed

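RNA from whole seedlings was sequenced in 8 libraries. Per the file headers, the authors deposited raw read counts and RPKM (count scaled to length and library total) for 48321 transcript models; the RPKM header of 1 table is a repeat of its read header. Bowtie2 2.2.2 and TAIR10 come from the submitters' processing notes, and no counting tool, strand or read length is stated. RPKM was used only to check lengths: in 99.94% of 24191 models the implied length was the annotated coding length less 2 to 4 bases. Models were summed per locus. Of 1462 loci whose 2 models have identical coding sequences, those with at least 100 reads (992 to 1095 per library) had them divided as a random choice would divide them (mean chi-square on 1 degree of freedom 0.965 to 1.052 per library), so each read was taken to count once in a sum.

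Loci were tested with edgeR 4.0.16 (R 4.3.3; quasi-likelihood F tests, TMM factors 0.931 to 1.117, filterByExpr with minimum count 10 and minimum total 15) in 1 fit of all 8 libraries with 4 residual degrees of freedom, moderated across loci, and a common biological coefficient of variation of 0.0426. Calls were made at a Benjamini-Hochberg adjusted p under 0.05 over 20695 loci, and SE was taken as |log2 fold change| over the root of F. Such an SE is moderated across loci and can be smaller than a gene's own replicates would give. At the smallest total, 3 reads are 0.192 CPM. Replicates differed beyond counting noise (chi-square per degree of freedom 2.39 to 3.53). The procedure was tested on simulated data. Sequences and positions came from RefSeq's TAIR10.1, which may differ from the authors' build; 27420 loci matched. Pathway genes were named by the lowest p among called genes, up to 2 per list and direction (1 gene so chosen is not reported here), and likeness used log2(CPM + 0.5). Members and lists were chosen with earlier results of these data known. Alternatives were other scalings, filters, DESeq2 1.42.0, fits of 2 genotypes, a replicate block, the model with most reads, organelle loci left out, levels per length, and each library left out in turn.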

Additional observations from a re-analysis of the deposited data

How the results depend on the processing

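All 30 member results (5 genes in 6 comparisons) kept their direction and their side of the threshold in all 390 combinations with the alternatives run. RCA in agb1 against WT, the member result that missed the threshold, had log2 fold changes from 0.05 to 0.15. The 6 counts of loci called moved by over 1.5 times in 2 cases: the 3553 loci called in agb1 against WT became 2108 with DESeq2 and 2350 without WT replicate 2, and ran from 2350 to 2477 when 1 library was left out. With a library left out, the lone library is assumed to vary like the other genotypes. Library sizes alone changed the share of calls that were higher from 51% to 31.4% in agb1 against WT and from 49.8% to 70.7% in cry1 cry2 against WT; in agb1 against hy5 it went from 48.5% to 38.4%, in agb1 against cry1 cry2 from 49.7% to 27.5% and in hy5 against cry1 cry2 from 53% to 28.2%. Same-numbered libraries did not deviate together (correlations -0.052 to 0.086), so the numbers do not pair them; with the replicate block 3476, 8751 and 10549 loci were called in agb1, hy5 and cry1 cry2 against WT, 10238 in agb1 against hy5, 11899 in agb1 against cry1 cry2 and 8945 in hy5 against cry1 cry2. The model with most reads per locus leaves out reads of RBCS1A, RBCS1B and RBCS3B, which have several models, and none of RBCS2B. With it the WT shares became 60.1% in place of 52.9% for RBCS1A, 8.79% in place of 11.2% for RBCS1B, 14.8% in place of 9.53% for RBCS2B and 16.3% in place of 26.3% for RBCS3B. The tests of these 4 shares and of the RCA to RBCS ratio kept their side of the threshold there and per coding length; with a library left out, only F ratios were computed.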
